A study of Mus musculus with 9 samples.

Results

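The 10 genes analysed mark or drive endoderm: the transcription factors Gata4, Gata6, Sox7, Sox17, Foxa2 and Hnf4a, the receptors Pdgfra and Cubn, the endocytic adaptor Dab2 and the matrix protein Sparc. They were named by symbol as a set of primitive and definitive endoderm genes by a rule that uses no measured value, though with earlier results of these data known, and all 10 were found among the 35896 genes of the annotation. Of these, 9 were among the 14648 genes that passed the filter on low counts, and Foxa2 did not. The libraries were bulk RNA-seq of E14, an established line of mouse embryonic stem cells derived from the inner cell mass of the blastocyst. The cells were grown on gelatin in serum medium. There were 3 groups of 3 libraries, and replicates 1, 2 and 3 are paired across the groups. The self-renewal control was kept with LIF, the MEK inhibitor PD0325901 (1 µM) and the GSK3 inhibitor CHIR99021 (1 µM), together called LIF2i, and its libraries are labelled with the same time, 72 h, as the others. The withdrawn control was without LIF2i for 72 h. The third group was withdrawn for the same 72 h with CK666 in the medium at 80 µM. CK666 inhibits the Arp2/3 complex, which starts branched actin filaments. CK666 came from a stock in DMSO, and the labels call the controls untreated and name no solvent for them, so an effect of CK666 and of its solvent cannot be told apart. All groups come from this single line.

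Primitive endoderm forms beside the epiblast in the blastocyst, from inner cells that respond to FGF through MEK and ERK, and it gives rise to the parietal and visceral endoderm of the yolk sac. Gata6, Sox17, Gata4 and Sox7 are the transcription factors of that lineage, Pdgfra its early surface receptor, Dab2 and Cubn parts of the uptake machinery of its mature cells, and Hnf4a a nuclear receptor of visceral endoderm and later liver. Definitive endoderm forms separately at gastrulation and uses Sox17, Foxa2, Gata4 and Gata6 again. The first comparison asks how these genes differed after withdrawal of LIF2i, and the second how they differed with CK666 during withdrawal. The third sets the CK666 cells against self-renewing cells. It shares its libraries with the other two, so the comparisons do not test each other.

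Library totals ran from 16894327 to 22550952 estimated counts. The libraries of replicate 1 stood apart. They had counts above 0 for 15637 genes with LIF2i, 17231 after withdrawal and 17551 with CK666, against 18080 to 18636 in the other libraries. The labelled cell type was checked against 8 markers of embryonic stem cells, whose summed level was 6210 to 11600 TPM (a transcript level corrected for length) with LIF2i, 3810 to 4440 TPM after withdrawal and 3950 to 6160 TPM with CK666. In bulk libraries fewer cells of a type and less RNA per cell cannot be told apart.

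On withdrawal the uptake genes Dab2 and Cubn rose. Hnf4a fell, and Sparc fell in a call that held in 13 of 21 alternative settings. Gata6, Sox7, Sox17 and Foxa2 were below 1 TPM in every library. Of the 9 members tested, 4 were called, 2 higher and 2 lower, by edgeR's quasi-likelihood test with the replicate as a block and an adjusted p under 0.05. Among all genes tested the same rule called 40.7%, 21.1% higher and 19.7% lower, so the share of members called was near that of the transcriptome. The median log2 fold change of the 9 was 0.87, against 0.01 over all genes tested. Without replicate 1, 7 members were tested and their median was -0.22, so its direction rests on that replicate and on the members tested. With CK666 no member was called by edgeR (1 at an unadjusted p under 0.05), DESeq2 or limma-voom, where the rule called 2.05% of all genes, 1.15% higher and 0.894% lower. At an unadjusted edgeR p under 0.05 there were 2890 of all 14648 genes.

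**Figure D1:**
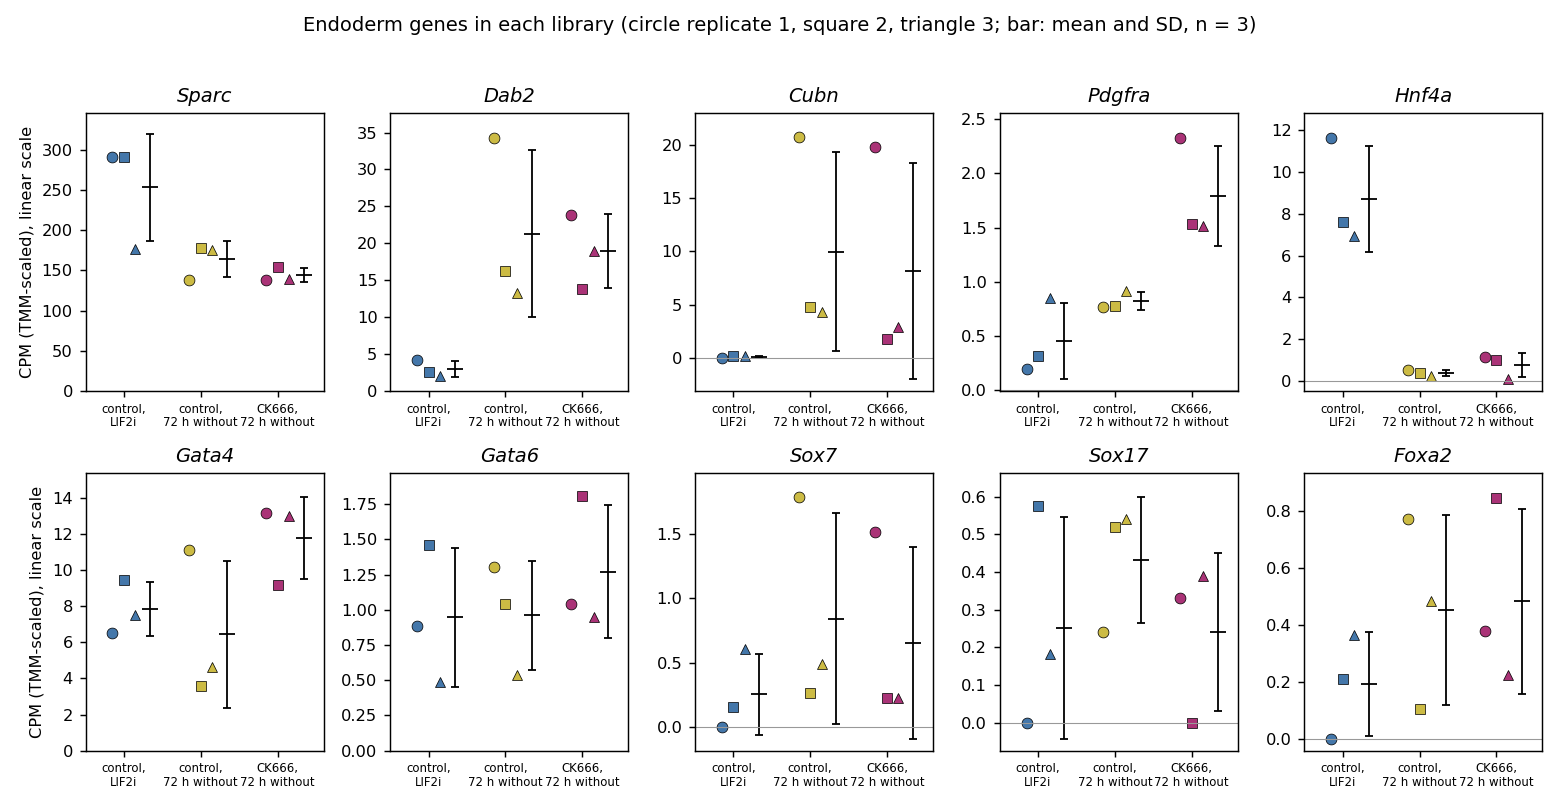
Level of each of the 10 endoderm genes in every library, in CPM on a linear axis for each gene, with a point for each of the 3 replicates of a group and bars for the mean and SD (n = 3). Dab2 and Cubn are higher in all 6 withdrawn libraries than in the LIF2i libraries, and Hnf4a is lower in all 6.

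Hnf4a was the member that fell furthest. It stood at 11.6, 7.58 and 6.92 CPM in the LIF2i libraries of replicates 1, 2 and 3, where CPM are counts scaled for library size and composition. It stood at 0.531, 0.415 and 0.27 after withdrawal and at 1.18, 1.02 and 0.112 with CK666. Every LIF2i library lay above every withdrawn library, with or without CK666. The log2 fold change on withdrawal was -4.47 (SE 0.54, adjusted p = 0.00022, edgeR), and all 3 pairs moved down. The call held in all 21 alternative settings. The withdrawn controls held only 5 to 11 estimated counts for the gene and the CK666 libraries 25, 18 and 2, so its level there is known coarsely.

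Hnf4a lies on chromosome 2 of GRCm38 (chr2:163506808-163572910, plus strand) and has a pair of RefSeq promoter windows, each from 250 bases before to 50 bases after a start. They are shown because the reads of the gene can be divided between those starts. Capitals mark matches on either strand to short motifs of factor families in the set. These are GATAA for GATA factors (in 25.4% of all 32851 RefSeq windows of this length), ACAAT for SOX factors (31%), TGTTTNC for FOX factors (20.5%) and GTTAAT for HNF1 factors (7.1%). The upstream window (chr2:163506607-163506906, plus strand) held 1 match each for GATA, SOX and FOX, and the downstream window (chr2:163546905-163547204, plus strand) held 2 for HNF1.
Hnf4a upstream start: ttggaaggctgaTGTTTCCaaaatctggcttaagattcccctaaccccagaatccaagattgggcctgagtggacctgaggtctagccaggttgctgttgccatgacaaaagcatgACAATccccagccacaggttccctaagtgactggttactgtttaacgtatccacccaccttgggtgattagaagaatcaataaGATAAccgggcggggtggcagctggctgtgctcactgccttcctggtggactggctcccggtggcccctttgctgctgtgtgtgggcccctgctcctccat
Hnf4a downstream start: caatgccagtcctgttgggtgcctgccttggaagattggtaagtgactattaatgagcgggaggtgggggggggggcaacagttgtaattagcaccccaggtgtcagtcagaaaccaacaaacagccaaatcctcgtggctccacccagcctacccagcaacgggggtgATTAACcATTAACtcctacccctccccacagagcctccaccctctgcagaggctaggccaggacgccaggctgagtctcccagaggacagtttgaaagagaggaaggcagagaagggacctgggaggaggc
A match describes these letters and is not evidence of binding.

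Transcripts that begin at the downstream start of Hnf4a held 184.7, 144 and 106.8 estimated counts in the LIF2i libraries, or 78.3%, 99.3% and 93.7% of the gene. After withdrawal they held all 11, 8 and 5 counts. The short transcript Hnf4a-205, which begins at the upstream start, held 51.3 counts in LIF2i replicate 1, against 1 and 7.2 in replicates 2 and 3. On the TPM scale, which weights short transcripts more, the gene stood at 31.5, 2.52 and 5.04 in the LIF2i libraries, so its TPM there was set largely by that library. The division of reads among transcripts is an estimate whose error is not in the tables used.

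**Figure D2:**
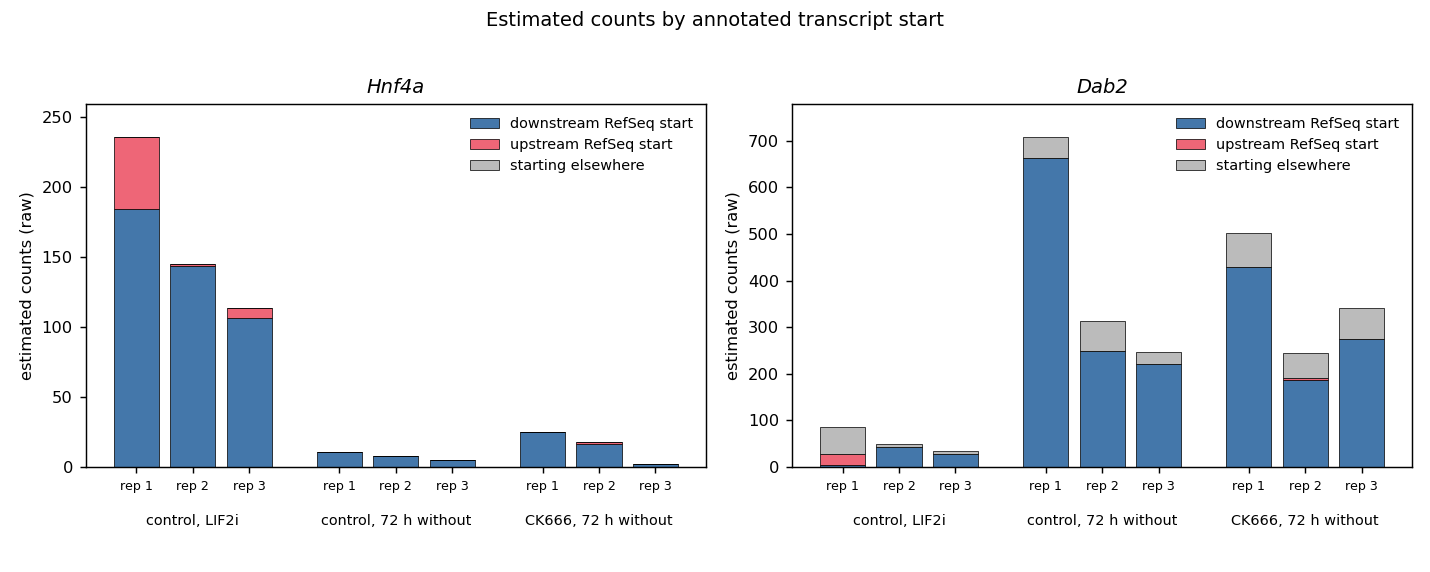
Estimated counts (raw, linear axis) of Hnf4a and Dab2 in each of the 9 libraries, divided by the annotated start of the transcripts. The counts of the downstream start are 106.8 to 184.7 for Hnf4a with LIF2i, at most 11 in the withdrawn controls and at most 25 with CK666. Those of Dab2 are 4.9 to 42.2 with LIF2i, 220.9 to 662.9 in the withdrawn controls and 186.8 to 429.5 with CK666.

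Gata4 is a zinc finger factor of primitive endoderm and later of heart and gut. It stood at 6.54, 9.46 and 7.53 CPM with LIF2i and at 11.1, 3.58 and 4.64 CPM after withdrawal, so these groups overlapped. It stood at 13.2, 9.17 and 13 CPM with CK666. In every pair the CK666 library was above its withdrawn control, by 0.25, 1.33 and 1.47 on the log2 scale, although the groups overlapped through replicate 1 of the withdrawn control. The withdrawal log2 fold change was -0.42 (SE 0.38, adjusted p = 0.41, edgeR), and that of CK666 was 0.95 (SE 0.37, adjusted p = 0.2, edgeR), with a 95% interval of 0.12 to 1.79 before adjustment. For CK666, Gata4 alone of the 9 members had an unadjusted edgeR p under 0.05, where 2890 of the 14648 genes tested did. Leaving out replicate 1 called Gata4 in both comparisons, at -1.04 for withdrawal (adjusted p = 0.015, edgeR) and 1.41 for CK666 (adjusted p = 0.013, edgeR). That fit called 3491 of all 14716 genes higher and 3097 lower for withdrawal, and 900 higher and 911 lower for CK666. The adjusted p for CK666 ran from 0.013 to 0.74 over the settings, and 3 of 21 made the call, among them the fit without LIF2i replicate 1 alone (0.99, adjusted p = 0.048, edgeR).

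Gata6, the factor that acts first in primitive endoderm, was near the limit of detection. It had 8 to 28 estimated counts per library with LIF2i, 10 to 27 after withdrawal and 17 to 32 with CK666. The 3 groups overlapped. Its log2 fold change was 0.08 on withdrawal (95% interval -1.12 to 1.28, adjusted p = 0.92, edgeR) and 0.41 with CK666 (-0.78 to 1.6, adjusted p = 0.73, edgeR). Changes within these unadjusted intervals could not be resolved at this depth.

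Sox7 and Sox17, related SOX factors of endoderm and endothelium, had few counts too. Sox7 had 0, 3 and 10 estimated counts with LIF2i, 37, 5 and 9 after withdrawal and 32, 4 and 4 with CK666. The high values were thus those of replicate 1, where the LIF2i library was at 0. A floor of 3 counts puts the withdrawn library of that replicate at least 12.2-fold higher, while the ratios in replicates 2 and 3 were 1.66 (95% interval 0.322 to 10.7) and 0.801 (0.288 to 2.19). These intervals and floors cover counting error only, and LIF2i replicate 1 had the fewest genes above 0 of the 9 libraries. The fitted withdrawal change of Sox7 was 1.28 (SE 1.21, adjusted p = 0.43, edgeR).

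Sox17 had 0 to 11 estimated counts in each of the 9 libraries and overlapped between all groups. Its log2 fold change was 0.87 on withdrawal (SE 1.20, adjusted p = 0.6, edgeR) and -0.64 with CK666 (SE 1.22, adjusted p = 0.82, edgeR). Of its exonic bases, 16.85% lie in an annotated gene on the other strand, and no source used here says whether the counting used strand. Foxa2, a forkhead factor of definitive endoderm and node, had 0, 4 and 6 counts with LIF2i, 16, 2 and 9 after withdrawal and 8, 15 and 4 with CK666. It was not tested, and a fit without the filter gave 1.37 for withdrawal (adjusted p = 0.52, edgeR) and 0.04 for CK666 (adjusted p = 1, edgeR).

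Dab2 rose on withdrawal in every pair. The protein is a clathrin adaptor that carries receptors of the LDL receptor family and cubilin into endocytic vesicles. It stood at 4.18, 2.56 and 2.07 CPM with LIF2i, at 34.2, 16.3 and 13.3 CPM after withdrawal and at 23.8, 13.8 and 19 CPM with CK666. All 6 withdrawn libraries lay above all 3 LIF2i libraries. The log2 fold change on withdrawal was 2.80 (SE 0.25, adjusted p = 4e-05, edgeR), and the call held in all 21 settings. Within pairs, its CPM were 8.22, 6.37 and 6.47 times those with LIF2i. For CK666 against the withdrawn control the log2 fold change was -0.08, with an unadjusted 95% interval of -0.58 to 0.42 (adjusted p = 0.88, edgeR). The pairs pointed different ways, at -0.52, -0.24 and 0.51.

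The gene has several starts (chr15:6299788-6440712, plus strand). Transcripts of the downstream start held 4.9, 42.2 and 27.6 estimated counts with LIF2i, 662.9, 248.8 and 220.9 after withdrawal and 429.5, 186.8 and 275.5 with CK666. Those of the upstream start were at 0 in all 3 withdrawn controls and at 23.6, 0 and 1.4 with LIF2i. In LIF2i replicate 1, 66.6% of the counts of Dab2 went to transcripts that begin elsewhere, against 13.8% and 14.8% in replicates 2 and 3. The downstream window (chr15:6386498-6386797, plus strand) is shown because its transcripts carry most of the withdrawn signal, and it held 1 HNF1 match, in capitals. The upstream window, not shown, held 2 GATA matches.
Dab2 downstream start: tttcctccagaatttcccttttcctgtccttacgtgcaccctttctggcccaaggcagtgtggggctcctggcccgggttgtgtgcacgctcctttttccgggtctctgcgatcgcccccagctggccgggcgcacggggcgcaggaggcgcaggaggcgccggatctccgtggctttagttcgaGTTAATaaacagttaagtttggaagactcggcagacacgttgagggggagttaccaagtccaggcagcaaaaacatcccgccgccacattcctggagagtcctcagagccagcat

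Cubn was the member that rose most. It encodes cubilin, the large uptake receptor of visceral endoderm, kidney and intestine, which reaches the cell surface with its partner amnionless. It had 0, 4 and 3 estimated counts with LIF2i, 429, 93 and 80 after withdrawal and 418, 31 and 53 with CK666. Every withdrawn library was above every LIF2i library, and replicate 1 was several times higher than the others. Against a floor of 3 counts the withdrawn library of replicate 1 was at least 141-fold higher than its LIF2i partner. This floor covers counting error only, and that LIF2i library had the fewest genes above 0 of the 9 libraries. In replicate 2 the ratio was 23.1 (95% interval 8.73 to 86.6), and in replicate 3 it was 23.7 (7.84 to 118). The call on withdrawal (adjusted p = 0.00076, edgeR) held in all 21 settings. The fitted log2 fold change of 6.0 (SE 0.88) rests in part on the 0 in replicate 1 and was 4.52 without that replicate and 4.36 without its LIF2i library alone. For CK666 it was -0.58 (95% interval -1.86 to 0.71, adjusted p = 0.64, edgeR), with all 3 pairs at or below the withdrawn control, at -0.06, -1.41 and -0.53.

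All counts of Cubn were on the full transcript Cubn-201. Its RefSeq window (chr2:13491827-13492126, minus strand, printed along the gene) is shown for comparison with that of Dab2, since both genes rose. It held no match to the 4 motifs, which says only that these letters are not in this window.
Cubn start: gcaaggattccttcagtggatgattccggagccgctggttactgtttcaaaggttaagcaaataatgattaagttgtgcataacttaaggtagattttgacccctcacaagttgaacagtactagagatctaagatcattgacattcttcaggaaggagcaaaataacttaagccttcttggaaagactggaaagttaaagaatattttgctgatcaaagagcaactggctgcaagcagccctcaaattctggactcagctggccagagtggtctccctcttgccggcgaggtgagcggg

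Sparc was the most abundant member, and it fell modestly. It encodes a secreted, calcium-binding matrix protein that parietal endoderm makes in quantity and that many other cells make too. It stood at 291, 291 and 176 CPM with LIF2i, at 138, 178 and 175 CPM after withdrawal and at 138, 154 and 139 CPM with CK666. LIF2i replicate 3 was level with its withdrawn partner, so these groups overlapped, whereas every CK666 library was below every LIF2i library. The withdrawal log2 fold change was -0.61 (SE 0.18, adjusted p = 0.024, edgeR), and the call held in 13 of 21 settings. It was lost without replicate 1, at -0.34 (adjusted p = 0.14, edgeR), without replicate 2, at -0.55 (adjusted p = 0.15, edgeR), and without the replicate block, at -0.63 (adjusted p = 0.068, edgeR). Leaving out any of the single libraries LIF2i 1, LIF2i 2, withdrawn control 1 or withdrawn control 2 also ended it, at -0.39 to -0.58, as did a fit of the 2 groups alone (-0.59, adjusted p = 0.067, edgeR). The separate upstream transcript Sparc-208 had 55, 147.2 and 69.26 estimated counts with LIF2i, 0 in all 3 withdrawn controls and 5.73, 0 and 0 with CK666, a small share of the gene. For CK666 the log2 fold change of the gene was -0.19 (95% interval -0.59 to 0.21, adjusted p = 0.61, edgeR).

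Pdgfra, the PDGF receptor on early primitive endoderm cells, was low throughout. It stood at 0.197, 0.314 and 0.85 CPM with LIF2i, at 0.772, 0.779 and 0.917 CPM after withdrawal and at 2.32, 1.53 and 1.51 CPM with CK666. The CK666 libraries were above all the others, at 27 to 49 estimated counts against 4 to 17. The CK666 log2 fold change was 1.14 (SE 0.60, adjusted p = 0.33, edgeR) and higher in 3 of 3 pairs, and was called in none of the settings. That of withdrawal was 0.95 (SE 0.65, adjusted p = 0.27, edgeR). Transcripts of Pdgfra that begin at another start than its RefSeq window held 34.9, 23.1 and 25.7 of the estimated counts with CK666, 14.9, 0 and 0 after withdrawal and 0 in all 3 LIF2i libraries. At these low counts the division among transcripts is coarse, and it was not tested between groups. Of its exonic bases, 6.5% are shared with other annotated genes.

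Against the LIF2i control, the CK666 cells had 5 of 9 tested members called, where the rule called 36.9% of all genes. Dab2, Cubn and Pdgfra were higher, against 19.8% of all genes, and Hnf4a and Sparc lower, against 17.1%. The log2 fold changes were 2.72 for Dab2 (SE 0.25, adjusted p = 5.8e-05, edgeR), 5.43 for Cubn (SE 0.90, adjusted p = 0.0017) and 2.09 for Pdgfra (SE 0.65, adjusted p = 0.031). They were -3.65 for Hnf4a (SE 0.51, adjusted p = 0.00057, edgeR) and -0.80 for Sparc (SE 0.18, adjusted p = 0.0076). Dab2, Cubn and Hnf4a kept their calls in all 21 settings and Sparc in 20. Without replicate 1 Cubn stood at 3.52 (adjusted p = 0.00091, edgeR), and without replicate 2 Sparc was not called, at -0.76 (adjusted p = 0.064, edgeR). Pdgfra was called in 10 of 21 settings, and leaving out replicate 1, 2 or 3 ended its call, at 1.46, 2.01 and 2.88 (adjusted p = 0.08, 0.18 and 0.076, edgeR). So did leaving out LIF2i 1 or 2, withdrawn control 2 or 3, or CK666 1 or 2, at 1.59 to 2.14, an effective length offset, at 1.58, and a fit of the 2 groups alone, at 2.13.

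**Figure D3:**
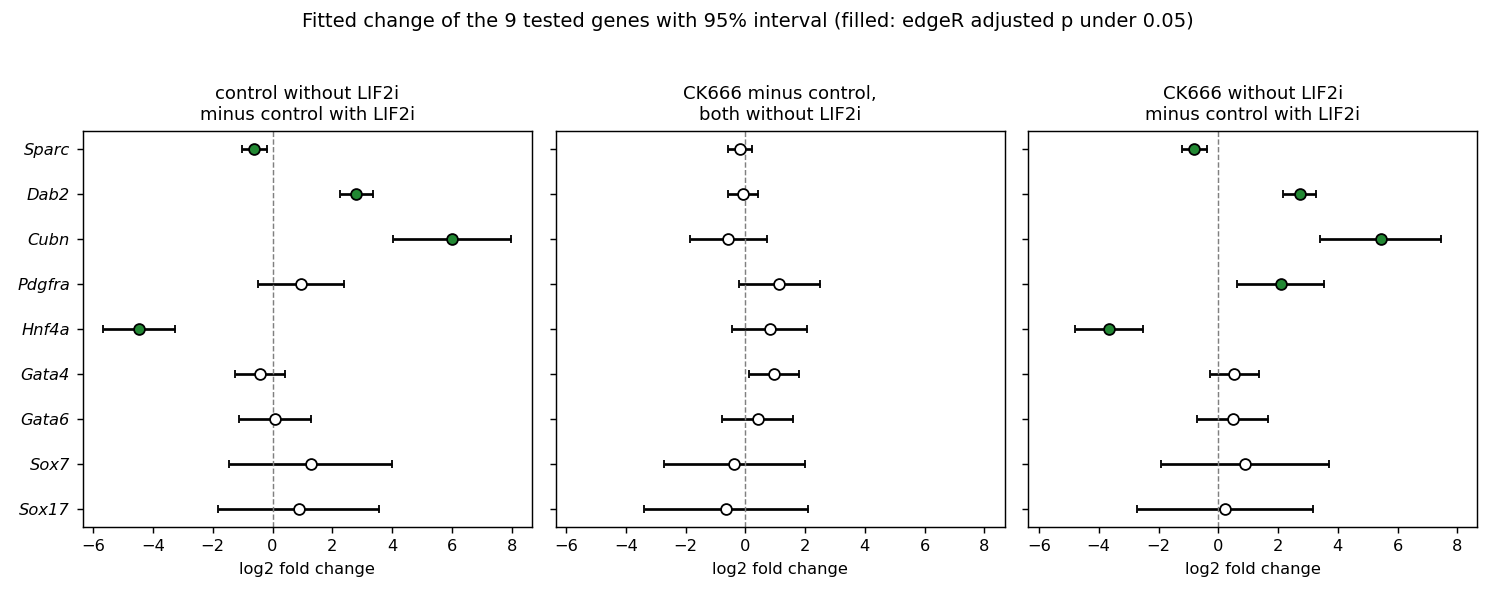
Fitted log2 fold changes of the 9 tested endoderm genes in the 3 comparisons, with 95% intervals before adjustment for multiple tests and filled points for adjusted p under 0.05. For withdrawal Dab2 is at 2.80, Cubn at 6.0, Hnf4a at -4.47 and Sparc at -0.61, all called, of which Sparc is called in 13 of 21 alternative settings. No point is called for CK666.

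By length-corrected level the order with LIF2i was Sparc at 192 ± 77.4 TPM (SD, n = 3), Hnf4a at 13 ± 16, Gata4 at 3.35 ± 0.272 and Dab2 at 2.41 ± 2.24, with the means of the other 6 members below 0.5 TPM. Sparc stood apart from the rest, while Hnf4a, Gata4 and Dab2 did not separate beyond their spread. After withdrawal it was Sparc at 119 ± 3.59 TPM, Dab2 at 12.5 ± 8.45, Gata4 at 3.22 ± 2.54 and Cubn at 1.35 ± 1.39 (SD, n = 3). With CK666 the order was the same, at 103 ± 8.82, 10.2 ± 3.3, 5.44 ± 1.64 and 1.08 ± 1.39 TPM (SD, n = 3). The means of the other 6 members were below 0.6 TPM in both withdrawn groups. Gata4 and Cubn overlapped in TPM between libraries of the withdrawn control, but not of the CK666 group.

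Other genes of extraembryonic endoderm moved on withdrawal in both directions. Of 29 listed, 24 were tested, 11 rose and 4 fell, with a median log2 fold change of 0.76 (0.38 without replicate 1). Over all genes tested, 21.1% rose and 19.7% fell on withdrawal. The changes largest in size were those of Cldn6, a tight junction claudin (5.14, SE 0.48, adjusted p = 0.00016, edgeR), Krt18, a simple epithelial keratin (4.49, SE 0.24, adjusted p = 4e-06), and Nid1, a basement membrane nidogen (-4.17, SE 0.22, adjusted p = 4e-06). Claudins and keratins of this kind occur in many epithelia. Secreted products of visceral endoderm on the list, named here after their values were seen, differed in level. Afp had at most 3 counts in every library. Ttr was at 0 in all LIF2i and CK666 libraries and had 11, 1 and 2 counts in the withdrawn controls. Apob, a lipoprotein component, rose on withdrawal (3.09, SE 0.68, adjusted p = 0.006, edgeR), from 7, 1 and 7 counts to 123, 19 and 23. Apoe, another apolipoprotein that many cells make, stood at 824 to 3060 TPM over the 9 libraries and was not called in any of the 3 comparisons. With CK666 none of the 24 was called by edgeR (8 at an unadjusted p under 0.05, where 2890 of all 14648 genes were). Without replicate 1, 23 were tested: 3 rose and 3 fell with CK666, where 900 of all 14716 genes rose and 911 fell, and 11 rose and 8 fell on withdrawal, where 3491 rose and 3097 fell. The CK666 cells had 9 higher and 5 lower than with LIF2i, against 19.8% and 17.1% of all genes, with Lrp2 at 3.70 (SE 0.25, adjusted p = 1.4e-05, edgeR) among the 3 named by the rule, beside Krt18 at 4.28 and Cldn6 at 4.01.

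The endocytic partners of Cubn and Dab2 were 8 genes, all tested, and 5 were called on withdrawal, where 40.7% of all genes were. On withdrawal 2 rose, Lrp2, which encodes megalin, the receptor that works beside cubilin (3.58, SE 0.25, adjusted p = 1.3e-05, edgeR), and Amn, which encodes amnionless (2.06, SE 0.44, adjusted p = 0.0048). Another 3 fell, led by the related receptor Lrp1 (-0.91, SE 0.17, adjusted p = 0.0023, edgeR). None was called with CK666, and 4 had an unadjusted p under 0.05 (edgeR), where 2890 of all 14648 genes did. Without replicate 1, 1 was called, higher, where 900 of 14716 genes rose. In CK666 cells 2 were higher and 1 lower than with LIF2i, a share near the 36.9% of all genes called there.

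Of 17 listed genes of definitive endoderm, 13 were tested, and 4 rose and 2 fell on withdrawal, a share near the 40.7% called among all genes. Prdm1, a repressor also used in germ cells, fell by 2.45 on the log2 scale (adjusted p = 0.00044, edgeR), Cxcr4, a chemokine receptor, fell by 1.69 (adjusted p = 0.024), and Otx2, which also marks formative epiblast, rose by 1.70 (adjusted p = 0.0002). Mixl1, a factor of mesendoderm, was below the minimum of 20 mean counts for naming and is given after its value was seen. It had 0, 2 and 0 counts with LIF2i, 21, 8 and 20 after withdrawal and 24, 10 and 17 with CK666, and was called higher in both comparisons with LIF2i (adjusted p = 0.012 in each, edgeR). With CK666 the keratin Krt19 was lower, at -1.67 (SE 0.29, adjusted p = 0.03, edgeR), and no other gene of this list was called. Without the replicate block edgeR called no gene for CK666, Krt19 included. Against LIF2i, 4 were higher and 4 lower in CK666 cells, where 19.8% and 17.1% of all genes were, and Gsc (-2.57), Cxcr4 (-2.18) and Prdm1 (-1.82) were the genes named by the rule, all lower. Cer1 had at most 3 counts in every library.

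Among 15 genes of the signals upstream of primitive endoderm, 4 rose and 7 fell on withdrawal, against 21.1% and 19.7% of all genes. Fgfr2, an FGF receptor of primitive endoderm, rose by 2.36 (SE 0.44, adjusted p = 0.0027, edgeR). Nanog, the epiblast factor that opposes Gata6, fell by 2.12 on the log2 scale (adjusted p = 5.2e-05, edgeR), and Klf5 fell by 2.74 (adjusted p = 0.00026). None was called with CK666, and 5 had an unadjusted p under 0.05 (edgeR), where 2890 of all 14648 genes did. Without replicate 1, 2 rose and 2 fell, where calls over all genes went from 300 to 1811. In the third comparison 4 were higher and 7 lower, against 19.8% and 17.1% of all genes, with Klf5 at -2.65, Pdgfc at -2.28 and Tdgf1 at -2.12.

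**Figure D4:**
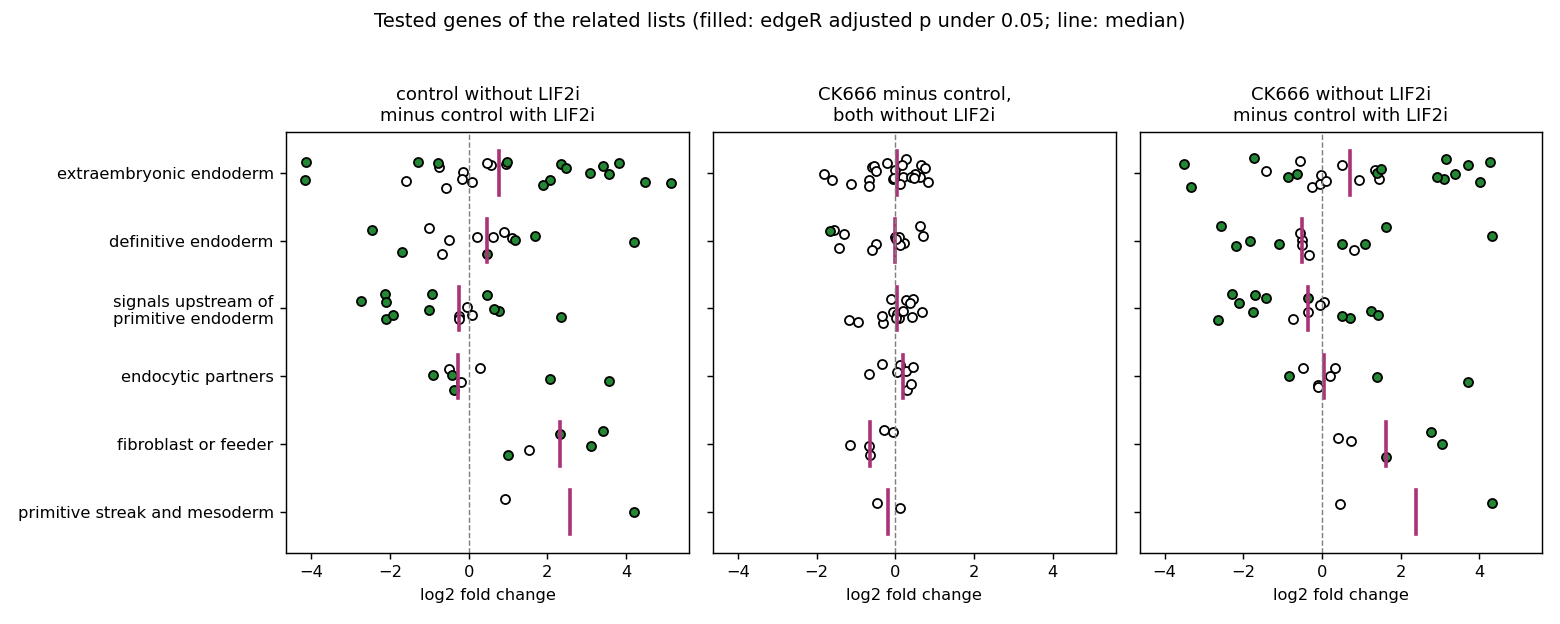
Fitted log2 fold change of each tested gene in 4 lists of endoderm genes and 2 lists of other cell types, in the 3 comparisons, with filled points for an edgeR adjusted p under 0.05 and a line for the list's median. On withdrawal the extraembryonic endoderm list has 11 filled points above 0 and 4 below, and with CK666 the only filled point is Krt19 of the definitive endoderm list, at -1.67, which is not called without the replicate block.

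Markers of other cell types moved beside the members. Of 8 fibroblast or feeder markers, 5 were tested and 4 rose on withdrawal, among them Thy1 (2.32, adjusted p = 0.00029, edgeR), where 21.1% of all genes rose. The summed level of the 8 was 5.39 to 12.3 TPM with LIF2i, 25.1 to 38.6 TPM after withdrawal and 17.7 to 24.4 TPM with CK666. Thy1 carried most of it, at means of 4.87, 23 and 15.6 TPM in these groups. Lum had at most 3 counts in every library, Postn at most 5 and S100a4 at most 7, and these were not tested. Sparc, Pdgfra and Dab2 are also made by fibroblasts and mesoderm. The summed level of 6 primitive streak and mesoderm markers was 0.336 to 1.47 TPM with LIF2i, 1.47 to 4.37 TPM after withdrawal and 1.36 to 2.26 TPM with CK666, and Msgn1 had at most 3 counts throughout. Of these 6, 2 were tested and 1 rose on withdrawal. Of the 8 markers of embryonic stem cells, 7 fell on withdrawal, led by Esrrb (-4.95, adjusted p = 8.7e-05, edgeR), where 19.7% of all genes fell. In CK666 cells 6 were lower than with LIF2i, where 17.1% of all genes were. Among 7 trophoblast markers 5 were tested, with 1 higher and 1 lower on withdrawal. Without replicate 1 these were 2 and 0, where 3491 of all 14716 genes rose and 3097 fell. Among 4 neural markers 1 was higher and 1 lower on withdrawal, against 21.1% and 19.7% of all genes. Of 4 blood and endothelial markers only Pecam1 was tested, at -3.97 (adjusted p = 6.3e-05, edgeR). The neural markers summed to 5.28 to 8.49 TPM with LIF2i, 5.83 to 23.7 TPM after withdrawal and 12.4 to 27.3 TPM with CK666. For CK666 none of the 4 was called, with a median log2 fold change of 1.37. Without replicate 1, the fit that also called Gata4, 2 were called higher, where 900 of all 14716 genes were. The part of these cell types in the values of the members was not tested.

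The genes whose level followed each member most closely over the 9 libraries were sought among 9498 protein-coding genes, by Pearson's r of log2 CPM, for the 5 members with at least 50 counts per library on average. The points share libraries and groups, so r is a description. For Dab2 the closest were Plcg2 (0.991), Snap47 (0.989) and St6gal1 (0.985), and for Cubn Pard6g (0.991), Lin28a (0.988) and Chtf8 (0.986). For Hnf4a they were Zswim1 (0.994), Adam19 (0.987) and Ubxn7 (0.981). Sparc was followed less closely, by Me1 (0.936), Atp2b4 (0.926) and Lman2 (0.917), and so was Gata4, by Mon2 (0.903), Sars (0.895) and Nnt (0.891). Between members, r was 0.92 for Dab2 and Cubn and -0.84 for Dab2 and Hnf4a.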

How the data were processed

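The authors quantified reads against transcripts with kallisto after trimming with cutadapt 1.8.1 and checks with FastQC, per the submitters' processing notes, which also name sleuth. The deposited tables give, per library and transcript, estimated counts and TPM. The kallisto version and the use of strand are not given in the sources used here. Transcripts were joined to genes by GENCODE M21 on GRCm38 (116640 of 119414 matched, and the others held 0.895% to 1.077% of counts), and estimated counts were summed per gene and rounded.

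edgeR 4.0.16 in R 4.3.3 was fitted to all 9 libraries (TMM scaling, filterByExpr, robust quasi-likelihood test, replicate block, Benjamini-Hochberg adjustment over 14648 genes). The block rests on the design text, which calls the replicates paired. Deviations from group means correlated at 0.30 to 0.65 between same-numbered libraries, with a median of 0.41. Between others they correlated at -0.53 to 0.29, with a median of -0.37. The 3 deviations of a group sum to 0 for each gene, so the negative median is not separate evidence of pairing. The design text calls the libraries biological replicates. What kept them separate is not given in the sources used here, so p-values measure the spread between these libraries. The members, the gene lists and the rule for naming list genes (the 3 largest called changes among genes with a mean of at least 20 estimated counts in some group) were chosen with earlier results of these data known. Scripts were tested on simulated data. Alternatives were DESeq2 1.42.0, limma 3.58.1 (voom), other scalings and filters, and leaving out libraries. The counts of list genes without replicate 1 were added after the data had been seen. Promoter windows came from RefSeq on GRCm38.p6, which gave them for 6 members, and not for Gata4, Gata6, Sox7 and Sox17.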

Additional observations from a re-analysis of the deposited data

How the results depend on the processing

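Dab2, Cubn and Hnf4a kept their direction and call in all 21 alternative settings for withdrawal and for CK666 against LIF2i. Without the replicate block the genes called fell to 3509 for withdrawal (5967 with it), 0 for CK666 (300 with it, and 1251 at an unadjusted p under 0.05 without it) and 2966 for CK666 against LIF2i (5408 with it). For the members, removing the block ended only the call of Sparc on withdrawal, given above. For CK666, genes called were 565 without the filter on low counts, 1136 with DESeq2, 553 with limma-voom, 147 with an effective length offset and 1367 in a fit of the 2 groups alone. That last fit called 1 member, Gata4 (0.99, adjusted p = 0.047, edgeR), against 0.

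Leaving out a replicate or a library gave 3099 to 6588 genes called for withdrawal, 3 to 4 members called for withdrawal, 0 to 1811 genes called for CK666, 0 to 1 members called for CK666, 2413 to 6129 genes called for CK666 against LIF2i and 3 to 5 members called for CK666 against LIF2i. Uncalled members changed sign in some settings, and the cause was not tested. With libraries left out, their log2 fold changes ran, for withdrawal, from -1.04 to 0.09 for Gata4, -0.26 to 0.38 for Gata6 and -0.01 to 3.15 for Sox7. For CK666 they ran from -0.38 to 0.13 for Dab2, -0.37 to 0.01 for Sparc, -1.44 to 0.34 for Sox7 and -1.76 to 0.36 for Sox17. For CK666 against LIF2i they ran from -0.48 to 2.77 for Sox7 and -0.73 to 1.55 for Sox17, which was at -0.05 without the block. With 3 replicates a group and at most 37 counts per library, precision was low for Gata6, Sox7, Sox17 and Foxa2: the SE of the withdrawal log2 fold change was 0.53 for Gata6, 1.21 for Sox7 and 1.20 for Sox17.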
